A study of Rattus norvegicus with 10 samples.

Results

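The vasopressin gene (Avp, ENSRNOG00000021229) and the oxytocin gene (Oxt, ENSRNOG00000021225) are described here in RNA-seq data of the rat supraoptic nucleus (SON). They were chosen as the genes of the peptide hormones of this nucleus, by identifier, and are 2 of the 32402 genes listed. No value was used to pick them, but earlier results of these data were known. The study lowered the expression of Creb3l1, a transcription factor of the endoplasmic reticulum membrane, in the SON of 5 male Sprague-Dawley rats. An adeno-associated virus (AAV) with a non-targeting short hairpin RNA (shRNA) was injected into the left SON of each animal and an AAV with a Creb3l1 shRNA into the right SON, and the tissue was collected after 3 weeks. Both SONs of an animal thus carried a virus and an shRNA, and treatment and brain side cannot be told apart. The animals had free access to food and water. Poly(A) RNA was sequenced from 1 mm punches of frozen sections, giving 5 control and 5 knockdown SONs with 29020948 to 34382889 counts each.

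Magnocellular neurones of the SON make either vasopressin or oxytocin as the main product and send axons to the posterior pituitary, where both hormones enter the blood. Vasopressin acts on the kidney to retain water, and oxytocin is best known for its actions on the uterus and the mammary gland and, in the rat, for increasing sodium excretion. Each gene encodes a precursor in which the short hormone is followed by a carrier protein, its neurophysin, and the part that encodes the neurophysin is closely alike in both genes. The assignment of reads that match both genes is not given in the sources used here, so a value of either gene may hold reads of the other or may miss shared ones.

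Avp and Oxt are neighbours that face each other on chromosome 3, with 0 RefSeq genes between them in the GRCr8 assembly. The 250 bases before each start are shown because they carry the sequences searched for letters that factors of the CREB family are known to bind. Capitals mark a match, and both are in the Avp promoter. Sequences are from RefSeq, 5′ to 3′ on the strand of the gene, with Avp at chr3:138248523-138248772 on the minus strand and Oxt at chr3:138235504-138235753 on the plus strand.
Avp: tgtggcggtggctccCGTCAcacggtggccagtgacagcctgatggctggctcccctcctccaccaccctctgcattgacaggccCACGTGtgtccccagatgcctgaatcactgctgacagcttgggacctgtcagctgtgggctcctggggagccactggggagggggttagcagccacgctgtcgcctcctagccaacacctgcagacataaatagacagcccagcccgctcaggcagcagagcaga
Oxt: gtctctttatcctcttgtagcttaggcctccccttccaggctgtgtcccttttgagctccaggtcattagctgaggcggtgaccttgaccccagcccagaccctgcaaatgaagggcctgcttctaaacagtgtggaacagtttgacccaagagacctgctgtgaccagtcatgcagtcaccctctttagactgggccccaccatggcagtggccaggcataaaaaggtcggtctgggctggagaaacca

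Both strands were searched for TGACG, the core of the cAMP response element, for CACGTG, the G box, and for CACGTCA, which occurs in a repeat that the study cloned. TGACG can overlap CACGTCA, whose reverse complement holds it. The Avp promoter held TGACG on the reverse strand, read as CGTCA from base -235 relative to the start, and CACGTG from base -165. The Oxt promoter held neither, and CACGTCA was in neither promoter. Of all 33469 RefSeq promoter windows of this length, 18.2% held TGACG, 5.59% held CACGTG and 1.54% held CACGTCA. A match of these letters is a description of the sequence, and binding to it was not tested here.

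The rows were first checked by their place among the genes of each SON, ordered by count, where rank 1 is the gene with the most counts. Oxt ranked 4, 10, 7, 2 and 10 in the control SONs of animals 1 to 5 and 34, 27, 9, 30 and 184 in the knockdown SONs. Avp ranked 43, 54, 34, 18 and 27 in the control SONs and 218, 240, 13, 37 and 1197 in the knockdown SONs. Both genes were thus among the most counted genes in every control SON. Rank 1197 of Avp in the knockdown SON of animal 5 still lay within the upper 5.878% of the 20363 genes detected there. Counting error was small for both genes, at most 1.47% of the count, so that depth did not limit these values.

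Creb3l1 itself was at 26.9 ± 5.35 (SD, n = 5) TMM-normalised CPM in the control SONs, that is counts scaled to a common library size (CPM), against 12.0 ± 3.96 (SD, n = 5) after knockdown. It was lower in the knockdown SON of 5 of 5 animals (edgeR log2 fold change -1.16, SE 0.24, adjusted p = 0.0173). Its adjusted p was 0.0586 with the animal as a replicate block and 0.0641 without both SONs of animal 3 (log2 fold change -1.04). Its values were 7.10, 13.8, 8.68, 16.6 and 13.6 in the knockdown SONs of animals 1 to 5, all below the lowest control value of 20.3. The knockdown SON of animal 3 therefore had the second lowest level of Creb3l1. For Avp and Oxt this same SON stood apart from the other 4 knockdown SONs, and the results below are given with and without it.

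Avp was at 1478, 1136, 1487, 2488 and 1819 CPM in the control SONs of animals 1 to 5. In the knockdown SONs of the same animals it was at 474, 438, 4278, 1966 and 150 CPM. The knockdown SONs of animals 1, 2 and 5 lay below every control SON, that of animal 4 lay within the control range and that of animal 3 was the highest of all 10 SONs, so that the groups overlapped. The highest knockdown value was 28.5 times the lowest, against 2.19 times among the control SONs, and the SD of log2 CPM was 1.92 and 0.42 (n = 5 each).

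The group means of Avp were 1682 ± 511 CPM for control and 1461 ± 1727 CPM for knockdown SONs (SD, n = 5 each). The knockdown mean was 86.9% of the control mean, whereas the knockdown median was 31.9% of the control median. The edgeR quasi-likelihood test over 16286 genes gave a log2 fold change of -0.20 (SE 0.74, 95% interval -1.85 to 1.44, adjusted p = 0.906). On log2 CPM, which weighs each SON by its ratio, the difference was -1.09 with p = 0.238 in a two-sided exact permutation test of 5 against 5 SONs. A change in Avp of the group as a whole was therefore not separated from the spread between SONs. The interval includes a fall and a rise of more than 1 log2 unit.

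Oxt was at 9286, 5184, 6201, 5775 and 5221 CPM in the control SONs of animals 1 to 5. In the knockdown SONs it was at 1771, 2271, 6148, 2234 and 526 CPM. The knockdown SONs of animals 1, 2, 4 and 5 lay below every control SON, and that of animal 3 lay within the control range. The highest knockdown value was 11.7 times the lowest, against 1.79 times among the control SONs.

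The group means of Oxt were 6334 ± 1704 CPM for control and 2590 ± 2111 CPM for knockdown SONs (SD, n = 5 each), the latter being 40.9% of the former. The edgeR log2 fold change was -1.29 (SE 0.51, 95% interval -2.42 to -0.16), with an unadjusted p = 0.0289 and an adjusted p = 0.155 over all genes tested. In the exact permutation test the difference in log2 CPM was -1.66 with p = 0.0317, which became 0.111 after Benjamini-Hochberg adjustment over the 4 exact tests of Avp, Oxt, their ratio and their share of the counts. When 1 SON was left out, this unadjusted p rose to 0.0635 without the control SON of animal 1 or 3 or the knockdown SON of animal 1, 2, 4 or 5, and was 0.0159 without the knockdown SON of animal 3. The call for Oxt also depended on the tool, since DESeq2 gave a log2 fold change of -1.30 with an adjusted p = 0.0484 and edgeR with 1 surrogate variable gave -1.48 with an adjusted p = 0.0464. Of Avp and Oxt, 0 of 2 passed an adjusted p of 0.05 in edgeR, where 7.86% of all genes tested passed, and 1 of 2 passed an unadjusted p of 0.05, as did 23.3% of all genes. In DESeq2 1 of 2 passed, against 11.8% of all genes, and with the surrogate variable 1 of 2, against 22.1%. Complete separation of the groups, with every knockdown SON below every control SON, was seen for neither gene and for 5.5% of all genes tested. In bulk tissue, fewer neurones of a type and less RNA in each neurone cannot be told apart.

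**Figure D1:**
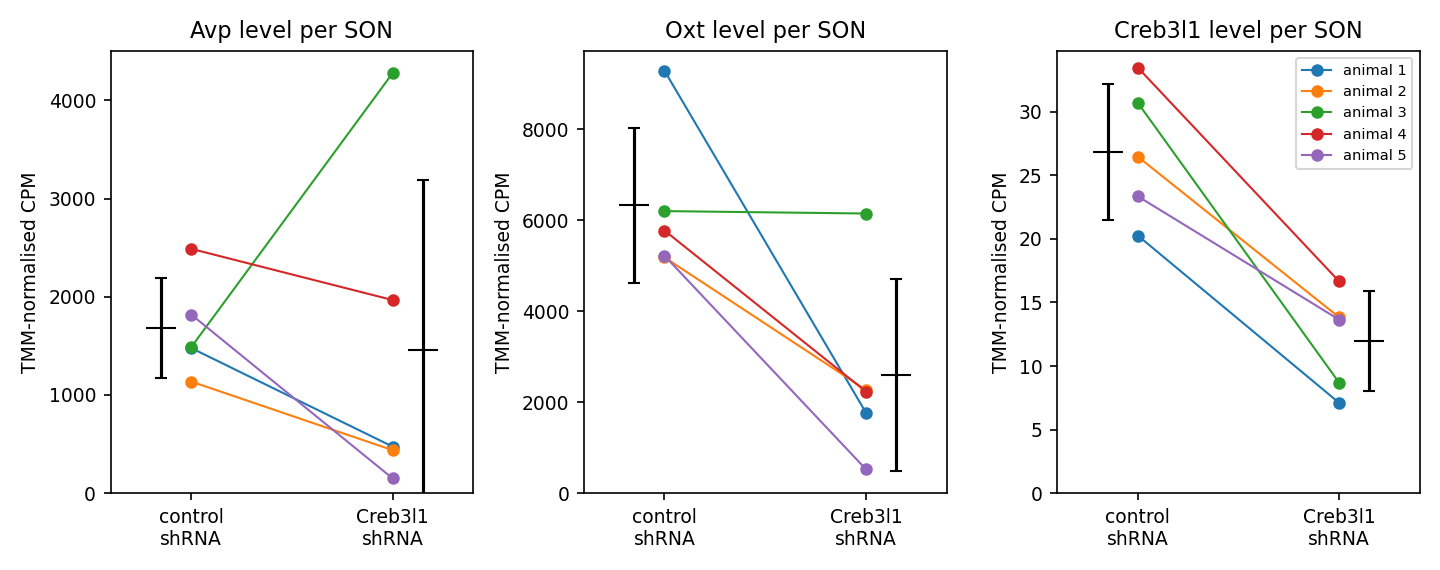
TMM-normalised CPM of Avp, Oxt and Creb3l1 in the control and the Creb3l1 shRNA SON of each animal. Lines join both SONs of an animal, and bars beside the points are the group mean and SD (n = 5), with the lower end for knockdown Avp cut at 0. Creb3l1 is lower in all 5 animals, Oxt is lower in 4 and nearly level in animal 3, and Avp is lower in 4 but at 4278 against 1487 CPM in animal 3.

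Because each animal carried both viruses, the difference could also be read within animals, as the log2 of the knockdown over the control level. For Avp it was -1.64, -1.38, 1.52, -0.34 and -3.60 in animals 1 to 5. In percent of the control SON these are 32.1%, 38.5%, 288%, 79.0% and 8.24%. Avp was therefore lower in 4 of 5 animals and higher in animal 3.

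For Oxt the within-animal log2 differences were -2.39, -1.19, -0.01, -1.37 and -3.31. The knockdown SON held 19.1%, 43.8%, 99.1%, 38.7% and 10.1% of the Oxt level of the control SON. Oxt was lower in 5 of 5 animals, as were 10.1% of all genes tested, but in animal 3 by a margin smaller than the spread among the control SONs. With the animal as a replicate block, edgeR gave log2 fold changes of -1.10 for Avp (SE 0.73, adjusted p = 0.490) and -1.65 for Oxt (SE 0.49, adjusted p = 0.162). An exact sign-flip test of the paired differences cannot pass 0.05 with 5 animals. For Oxt this exact test gave the smallest p that 5 animals allow, and for Avp it gave p = 0.25.

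Animal 5 had the lowest ratio of knockdown to control for both hormone genes and animal 3 the highest, and Creb3l1 followed another order. Its within-animal log2 differences were -1.51, -0.94, -1.82, -1.01 and -0.78 in animals 1 to 5. Creb3l1 was thus lowered most in animal 3 and least in animal 5. With 5 animals no relation between these differences was tested.

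Without both SONs of animal 3, the edgeR log2 fold change of Avp was -1.23 (SE 0.69, adjusted p = 0.334) and that of Oxt was -1.93 (SE 0.44, adjusted p = 0.0391), in a fit where 5.98% of all genes passed. Leaving out only the knockdown SON of animal 3 gave -1.19 for Avp (adjusted p = 0.269) and -1.92 for Oxt (adjusted p = 0.0163), with 10.3% of all genes passing. Oxt thus passed the threshold in both fits and Avp in neither. When animal 3 was left out and the other 4 animals were used as replicate blocks, Oxt was at -2.08 (adjusted p = 0.134) and Avp at -1.73 (adjusted p = 0.236). In exact permutation tests of 4 against 4 SONs, the log2 differences were -2.07 for Oxt with p = 0.0286, the smallest p possible, and -1.74 for Avp with p = 0.114. Animal 3 was left out after its values were seen.

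**Figure D2:**
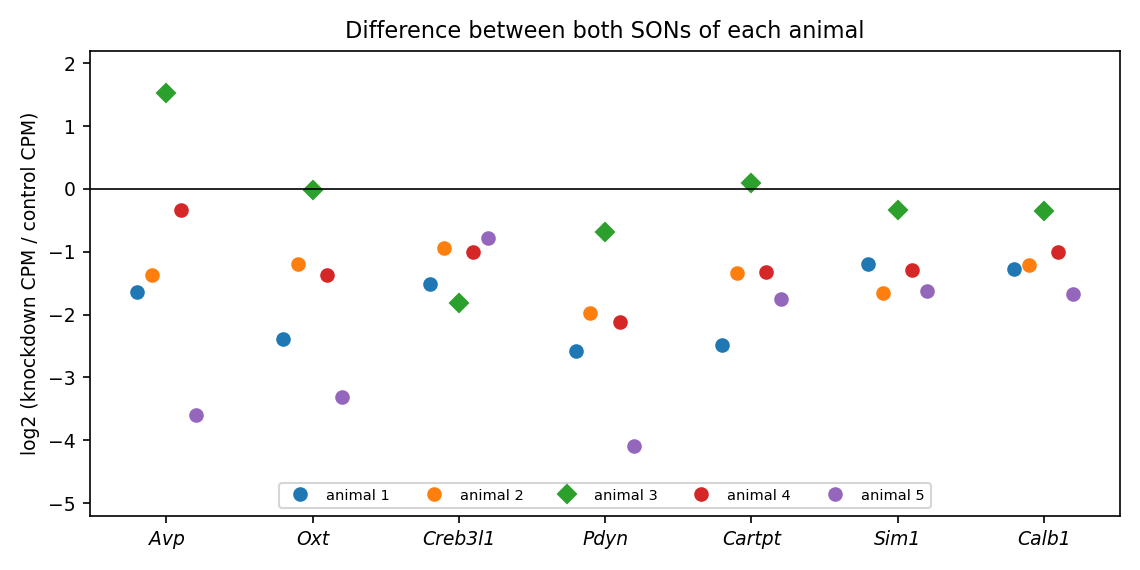
Log2 ratio of the knockdown to the control level, in TMM-normalised CPM, for 7 genes in each of the 5 animals, with animal 3 as diamonds and 0 marking equal levels. Animal 3 lies highest for Avp (1.52), Oxt (-0.01), Pdyn, Cartpt, Sim1 and Calb1 and lowest for Creb3l1 (-1.82). Oprk1, Fosl2 and Eif2ak3, which are not shown, had their highest knockdown level in other animals.

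The ratio of the Avp count to the Oxt count within a SON needs no normalisation and was compared only between SONs, since the genes differ in length. It was 0.159, 0.219, 0.240, 0.431 and 0.348 in the control SONs of animals 1 to 5 and 0.268, 0.193, 0.696, 0.880 and 0.285 in the knockdown SONs. The knockdown SONs of animals 3 and 4 had the highest ratios of all 10, and the other 3 lay within the control range. The mean log2 ratio was 0.57 higher in the knockdown group (exact permutation test, two-sided p = 0.302, adjusted 0.302 over 4 tests), and 0.33 higher without animal 3 (p = 0.686). A difference between the changes of Avp and Oxt was therefore not detected, although the ratio was 2.90-fold higher in the knockdown SON of animal 3 than in its partner.

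Together, Avp and Oxt took 1.07%, 0.639%, 0.778%, 0.888% and 0.719% of all counts in the control SONs of animals 1 to 5. In the knockdown SONs they took 0.219%, 0.260%, 1.03%, 0.402% and 0.0688%. The mean share was 0.819% ± 0.168 for control and 0.395% ± 0.372 for knockdown SONs (SD, n = 5 each), a difference of -0.424 percentage points (exact permutation test, two-sided p = 0.0556, adjusted 0.111 over 4 tests). Without animal 3 the difference was -0.592 points (exact permutation test, p = 0.0286, the smallest possible for 4 against 4). With library size only, without TMM factors, the edgeR log2 fold changes were -0.281 for Avp and -1.355 for Oxt. Taking the counts of both genes out of this library size moved them only to -0.282 and -1.358.

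**Figure D3:**
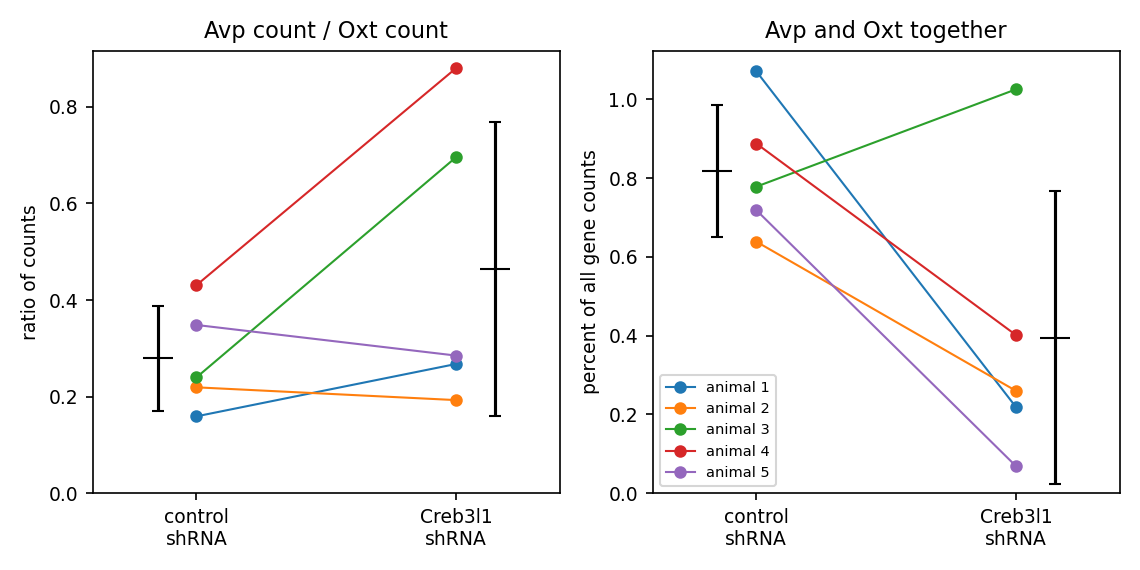
Left, the count of Avp divided by that of Oxt in each SON, and right, the percent of all gene counts that fell on both genes together. Lines join both SONs of an animal, and bars are the group mean and SD (n = 5). The ratio is highest in the knockdown SONs of animals 3 and 4 (0.696 and 0.880), and the share lies below every control SON in 4 of 5 knockdown SONs.

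Over the 10 SONs, log2 CPM of Avp and Oxt had a Pearson r of 0.831 and a Spearman rho of 0.552. The SONs came from 5 animals and shared the treatment, so these are descriptions without a p-value. Without the knockdown SONs of animals 2 and 5, the farthest from the median of Avp, r was 0.521. Leaving out extreme values of Avp narrows its range and can lower r by itself. This r therefore does not show on which SONs the relation rested. Among 14815 genes with a mean of at least 1 CPM, Oxt was in place 101 of the genes most alike to Avp by Pearson r, and Avp was in place 484 of those most alike to Oxt.

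The 5 genes most alike to Oxt were Cst6, a cysteine protease inhibitor (r = 0.981), Kcnmb4, a subunit of calcium-activated potassium channels (r = 0.973), ENSRNOG00000052564 (r = 0.959), Arg1, the arginase of the urea cycle (r = 0.958), and Pdyn, the precursor of dynorphin (r = 0.957). The genes most alike to either hormone gene were picked by their values in these same SONs, animal 3 included. Calls that they share with Oxt or Avp are therefore no separate evidence. Cst6 and Kcnmb4 did not pass the threshold in edgeR (adjusted p = 0.0728 and 0.0624), whereas Arg1 and Pdyn did (adjusted p = 0.0481 and 0.0331). Without animal 3, Cst6 and Kcnmb4 passed (adjusted p = 0.0282 and 0.0222), and both also passed in DESeq2 (0.0145 and 0.00748). The call of Arg1 was lost in 8 and that of Pdyn in 7 of the 10 fits that left out 1 SON. The 5 genes most alike to Avp had r from 0.922 to 0.963 and no symbol in the sources used here, and ENSRNOG00000010023 was the first of them. That gene was at 52.1 ± 1.36 CPM (SD, n = 5) in control and 48.5 ± 5.17 CPM in knockdown SONs, and it did not pass the threshold (adjusted p = 0.471). Pearson r does not depend on the size of the differences between SONs, which were smaller for this gene than for Avp.

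Other genes of the magnocellular secretory pathway were taken from 7 lists, for peptides made beside the hormones, precursor processing, vesicle cargo, receptors, factors described for both genes, excitability and folding in the endoplasmic reticulum. Symbols could be matched for only 21 of 158 genes on these and 8 marker lists. The named genes are those with the smallest adjusted p in the study's own analysis of these SONs, so their counts are no independent evidence of a direction and no list is read as a whole. Of the 21, 11 were past the threshold and lower, where 4.49% of all genes were, 2 were past it and higher, where 3.36% were, and 8 did not pass. The 11 include Creb3l1, the target of the shRNA itself. With the animal as a replicate block 1 of 21 passed, Calcb, against 0.0553% of all genes. Leaving out 1 SON ended no call of Calcb, Creb3l1, Oprk1, Sim1, Eif2ak3 or Ero1b. It ended that of Calb1 without the knockdown SON of animal 1, and those of Nefm, Ptprn, Pdyn, Fosl2, Oxtr and Pcsk5 in 3 to 8 of the 10 fits. These always included the fits without the knockdown SON of animal 1, the knockdown SON of animal 2 or the control SON of animal 3. Those fits called 519, 614 and 558 genes, against 1280 with all SONs. Leaving out both SONs of animal 3 ended the calls of Creb3l1 (adjusted p = 0.0641), Fosl2 (0.113) and Nefm (0.0873).

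Among the peptides made beside the hormones, Pdyn is the precursor of dynorphin, which vasopressin neurones release together with their hormone. Pdyn was at 470 ± 108 CPM (SD, n = 5) in control and 120 ± 87.2 CPM in knockdown SONs, a log2 fold change of -1.97 (SE 0.48, adjusted p = 0.0331, and 0.0930 with the block). Its within-animal log2 differences were -2.59, -1.97, -0.69, -2.12 and -4.09, so that animal 5 was again the lowest and animal 3 the highest. Cartpt, the precursor of the CART peptides, was at 25.9 ± 6.98 CPM in control and 11.6 ± 8.39 CPM in knockdown SONs and did not pass the threshold in edgeR (log2 fold change -1.17, adjusted p = 0.102). As for Oxt, this call depended on the tool and on animal 3, since Cartpt passed in DESeq2 (adjusted p = 0.0265), in limma-voom (0.0386), with 1 surrogate variable (0.0408) and without animal 3 (log2 fold change -1.76, adjusted p = 0.0107). Its knockdown value in animal 3 was 26.2 CPM, against 6.56 to 11.2 CPM in the other 4. Calcb, which encodes a calcitonin gene-related peptide, fell by 2.42 on the log2 scale (adjusted p = 0.00209) at no more than 60 counts in any SON.

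Of the processing enzymes and their partners, Pcsk5, a proprotein convertase, was lower in knockdown SONs (log2 fold change -1.02, adjusted p = 0.0407), and Scg5, the chaperone of another convertase, was not past the threshold (-0.62, adjusted p = 0.0977). Of the vesicle genes, Ptprn, a membrane protein of dense core vesicles, was lower (-0.90, adjusted p = 0.0270). The granins Chgb and Scg3 and the vesicle protein Syt4 had log2 fold changes of -0.51, -0.54 and -0.46 and adjusted p of 0.0728, 0.0528 and 0.0618. Without animal 3, Scg5, Chgb, Scg3 and Syt4 passed the threshold (adjusted p = 0.0245, 0.0391, 0.0185 and 0.0308), as they did in DESeq2, with adjusted p from 0.00928 for Scg3 to 0.0342 for Scg5. Scg5 in the knockdown SON of animal 3 was at 324 CPM, above its control partner at 313 CPM, and the other 4 knockdown SONs lay between 131 and 226 CPM.

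Both named receptors were lower. Oxtr, the oxytocin receptor, had a log2 fold change of -1.73 (adjusted p = 0.0422) at 0.787 ± 0.458 CPM (SD, n = 5) in knockdown SONs, and Oprk1, the kappa opioid receptor on which dynorphin acts, had -0.79 (adjusted p = 0.0109). Sim1, a transcription factor needed for these neurones to form, fell by 1.18 on the log2 scale (adjusted p = 0.0136), and Fosl2, a member of the AP-1 family, fell by 0.97 (adjusted p = 0.0404). Calb1, the calcium-binding protein calbindin, fell by 1.03 (adjusted p = 0.0192). In animal 3 the within-animal log2 differences were -0.34 for Sim1 and -0.35 for Calb1, against -1.19 to -1.65 and -0.998 to -1.67 in the other animals.

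Of the 5 named genes of the endoplasmic reticulum list, 1 was past the threshold and lower, 1 was past it and higher, and 3 did not pass. Eif2ak3, which encodes the stress sensor PERK, fell by 0.43 on the log2 scale (adjusted p = 0.00553), whereas Ero1b, an oxidase that drives disulphide bond formation, rose by 0.76 (adjusted p = 0.00189). Their knockdown values in animal 3, 38.6 and 38.2 CPM, lay inside the range of the other knockdown SONs. The chaperones Hspa5 and Canx had log2 fold changes of 0.36 and 0.22 and did not pass in edgeR (adjusted p = 0.0937 and 0.190). Neither did Ssr2, a subunit of the translocon-associated complex, at 0.46 (adjusted p = 0.0634). These calls too depended on the tool. In DESeq2 Hspa5 and Canx passed (adjusted p = 0.0361 and 0.0354), and Hspa5 also passed with 1 surrogate variable (0.0156). Ssr2 passed in 3 of 21 alternative settings. Of 15 named genes with a negative fold change other than Creb3l1, 12 had the highest knockdown value in animal 3, as did 39.6% of the 7130 genes tested with a negative fold change. The named genes were known by their small adjusted p in these same SONs and came from lists for 1 kind of neurone. This count and the share over all genes are therefore not like for like. The place of animal 3 was seen in genes of several lists, and its cause was not tested. The count leaves out the control partner. Calcb had its highest control value (1.72 CPM) as well as its highest knockdown value (0.266 CPM) in animal 3. The exceptions were Oprk1, highest in animal 1, and Fosl2 and Eif2ak3, highest in animal 4.

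Nefm, a neurofilament subunit, was the only named gene of the 8 markers of neurones and was higher in knockdown SONs (log2 fold change 0.66, adjusted p = 0.0263). For GABA neurones, astrocytes, oligodendrocytes, microglia, endothelium, lymphocytes and neurones of neighbouring nuclei 0 markers could be named. The part of the cellular makeup of the punches in the values of Avp and Oxt was therefore not tested.

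**Figure D4:**
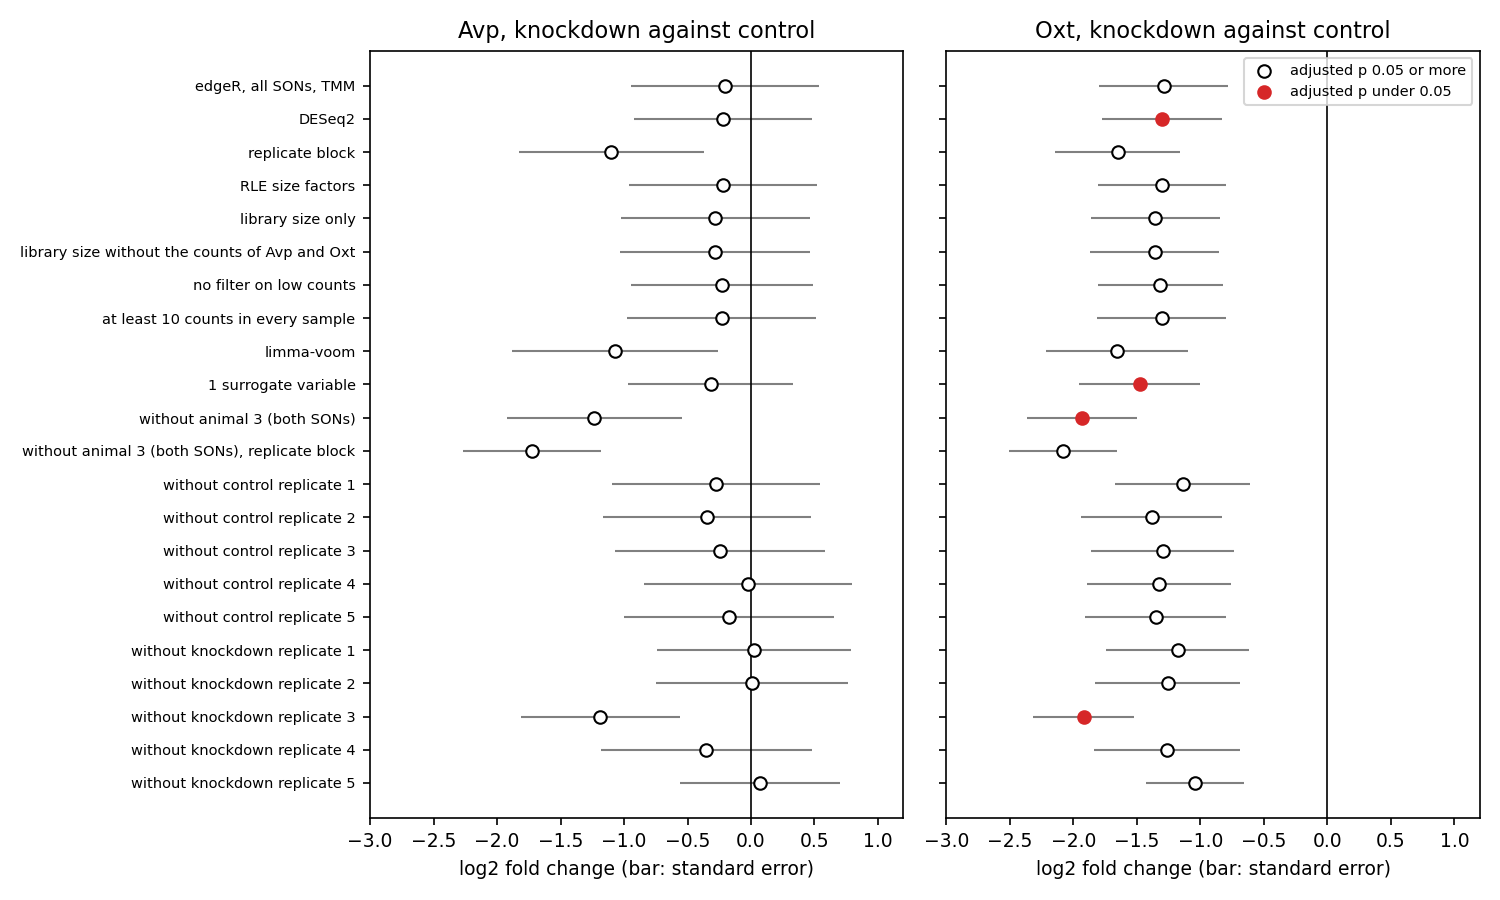
Log2 fold change of Avp (left) and Oxt (right), knockdown against control, with the standard error as a bar, for edgeR on all 10 SONs in the top row and for each alternative setting below it. Filled points have an adjusted p under 0.05. All Oxt values lie below 0, from -2.08 to -1.04, with 4 filled, and Avp values lie from -1.73 to 0.07 with none filled.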

How the data were processed

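Per the labels, poly(A) RNA from SON punches was made into libraries with the TruSeq Stranded mRNA kit. The authors trimmed reads at a phred score of 30, aligned them to Rn6 with STAR, counted genes with featureCounts and deposited raw counts, without normalisation. Their own comparison used DESeq2 1.28.1. The strand setting and the handling of reads with several matches are not given in the sources used here. The header of the table is shifted against its columns, so columns were read by number and checked against the normalised counts of the study's supplement. The ratio to the named sample varied by 0.0001% over 1741 genes, and to any other sample by at least 12.22%. Per-sample columns left unused numbered 0.

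Counts were analysed with edgeR 4.0.16 (R 4.3.3), with genes kept by filterByExpr (minimum count 10, 16286 genes), TMM factors of 0.956 to 1.07, the quasi-likelihood test without a term for the animal and Benjamini-Hochberg adjustment, at a threshold of 0.05. Permutation tests were exact and two-sided (scipy 1.17.1). The edgeR test was tested on simulated data with 200 changed genes, of which it found 80.0% while calling 12 unchanged genes of 16151 tested, DESeq2 found 88.0% and called 52, limma-voom 79.0% and 13, and the replicate block 64.5% and 7. The simulation held no animal effect and gave both groups the same spread, whereas Avp and Oxt spread more among knockdown SONs. These rates hold for that setting and do not rank the tools on the real data.

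The numbers in the labels pair the samples, since each animal gave a left and a right SON. After subtraction of the group means, the SONs of a pair correlated at -0.12, 0.45, -0.44, -0.32 and -0.55 over the genes tested. Between replicates of the same group, chi-square per degree of freedom was at least 29.2 over 20 pairs, so no library was a copy of another of its group. Pairs across the groups were not compared in this way. Counting errors cover counting only, since reads carried no molecular identifiers.

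Other fits used library size only, library size without the counts of Avp and Oxt, RLE factors, no or a stricter filter, the replicate block, limma 3.58.1 (voom), DESeq2 1.42.0, a surrogate variable from sva 3.50.0, each SON left out in turn, and 0.01 as threshold. Leaving out animal 3 was added after its values were seen. The genes, lists and tests were chosen with earlier results of these data known. Genes named were Avp, Oxt, Creb3l1, up to 4 of each list (the 2 with the smallest p and the 2 with the highest mean CPM) and the 5 most alike to each hormone gene. For the folding list Ssr2 was given beyond this rule. Symbols came from 1998 genes of the supplement. Named members numbered 3 of 14 for peptides, 2 of 10 for processing, 4 of 10 for vesicle cargo, 2 of 6 for receptors, 3 of 22 for factors, 1 of 14 for excitability, 5 of 23 for folding and 1 of 8 for neurones. These shares are under 80%, so no list median is given.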

Additional observations from a re-analysis of the deposited data

Results flagged for a closer look

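In 68 groups of 5 SONs checked, the highest or lowest value lay far from the other 4 in 4 groups. Chance gives about 1 in 20 groups, so this number is near that of chance and the values are only listed. Oxt in the control SON of animal 1 was at 9286 CPM, against 5184 to 6201 CPM in the other control SONs. Cartpt in the knockdown SON of animal 3 was at 26.2 CPM, against 6.56 to 11.2 CPM in the other 4. Oxtr in the control SON of animal 4 was at 3.996 CPM, against 2.18 to 2.39 CPM. ENSRNOG00000011107, the gene second most alike to Avp, was at 38.1 CPM in the control SON of animal 4, against 22.7 to 26.8 CPM.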

How the results depend on the processing

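The log2 fold change of Avp did not pass the threshold under any setting and ranged from -1.19 to 0.07 when 1 SON was left out, with a positive sign without the knockdown SON of animal 1 (0.02), 2 (0.01) or 5 (0.069). With the animal as a replicate block it was -1.10 (adjusted p = 0.490). Oxt was negative under every setting, from -1.92 to -1.04 when 1 SON was left out and -1.65 with the replicate block, and it passed with DESeq2 (-1.30), 1 surrogate variable (-1.48), without animal 3 (-1.93) and without its knockdown SON (-1.92). Its exact test of the log2 level gave -2.07 to -1.18 when 1 SON was left out, and -1.66 in the paired sign-flip test, at the smallest p that 5 animals allow and so not past 0.05. The share of counts differed by -0.582 to -0.343 percentage points when 1 SON was left out, and by -0.592 without animal 3, which passed. The direction of the Avp to Oxt ratio was the same under all alternatives run.

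Over all genes, edgeR called 1280 (732 lower, 548 higher), DESeq2 2188, 1 surrogate variable 3602, the threshold of 0.01 308, and fits without 1 SON 519 to 1699. The replicate block called 9, and 0 without animal 3, where 2615 genes had an unadjusted p under 0.05 and edgeR without the block called 975. With library size only, 1480 were called (1131 lower, 349 higher). Of 628 values of 30 other named genes under these alternatives, 492 kept their side of the threshold, 80 lost a call, 56 gained one and 0 changed sign. The cause of these differences was not tested. Depth, with at most 1.47% counting error for Avp and Oxt, limited neither, and 5 animals limit the paired tests.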
